A study of Mus musculus with 8 samples.

Results

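The 38 genes described here encode the sensors, effectors and folding machinery of the unfolded protein response, and were taken by symbol from a written list. All 38 were found once each among the 36432 gene IDs of the files. The endoplasmic reticulum (ER) of a pancreatic acinar cell folds large amounts of digestive enzyme, and the unfolded protein response matches its folding capacity to that load. Its 3 sensors are IRE1 (encoded by Ern1), ATF6 and PERK (Eif2ak3). IRE1 splices the messenger RNA of the transcription factor XBP1, and ATF6 is cut to release another factor, and both raise chaperones and degradation components. PERK slows translation and favours ATF4, which in turn raises CHOP (Ddit3) and other targets.

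Poly(A) RNA came from 8 whole pancreases of mice aged 6 to 8 weeks, of mixed strain. The 4 libraries labelled Gata6 lox/lox, here called labelled libraries 1 to 4, also carried Ptf1a-Cre +/KI. The 4 controls had the genotype Ptf1a-Cre +/KI, so all 8 mice carried Cre inserted at Ptf1a, a gene of pancreatic progenitors and acinar cells, and cells of other origin were not targeted. The comparison asks how the adult pancreas differs when the transcription factor GATA6 has been deleted there. Labels name no shared litters, and p-values measure the spread between these mice.

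Expression is given as rescaled FPKM, which is the deposited value divided by 100000 to give readable numbers. The column sums of the files differ by library, and no further scaling was applied. Fragments implied by the deposited intervals, over the genes with an estimate in every library, numbered 4811659 to 7420240 in the labelled libraries and 6016825 to 7299517 in the controls. Gata6 itself was higher, not lower, where the label names its deletion: it had 4.81, 5.12, 4.90 and 4.12 rescaled FPKM in labelled libraries 1 to 4, against 2.76, 2.12, 2.62 and 2.45 in controls 1 to 4 (log2 fold change 0.72, SE 0.11, adjusted p = 0.0443 in limma, exact two-sided permutation p = 0.0286, the smallest that 4 against 4 can give). That call was lost under most other settings, with the sign kept. Values here are per gene, so a loss of single exons would not show, and the libraries are named by their label. Whether each library carries the deletion its label names could not be checked from these values, and every direction given here rests on the labels. The BKD titles (labelled libraries 1, 3 and 4 and control 1) had 5.34 to 13.7 rescaled FPKM of the Y-linked gene Eif2s3y, and the ASK and BSH titles (labelled library 2 and controls 2 to 4) had 17.3 to 31.99 of Xist, so title prefix and sex moved together and partly with genotype. Acinar markers were present throughout but at very different amounts. The enzymes and granule products with an estimate summed to between 11520 and 489604 rescaled FPKM in the labelled libraries and to between 627962 and 854691 in the controls.

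On the rescaled FPKM scale most of the folding and degradation genes had lower levels in the labelled libraries, to very unequal extents. Pdia2, Erp27, P4hb, Ero1lb, Sel1l and Edem1 had the lowest values relative to the controls, while general ER proteins such as Pdia3 and Pdia4 were above the control mean in all 4 labelled libraries. The ATF4/CHOP arm was mixed, with negative log2 fold changes for Atf4 and Chac1 and a positive one for Atf3, and Atf4 turned positive (0.28 and 0.74) under the 2 scalings described next. Of the 38 members 27 had a negative log2 fold change, where 42.1% of all 11860 genes tested did. The median log2 fold change was -0.52 for the members and 0.10 for all genes tested. The sign depended on how libraries were scaled. With equal sums outside the enzymes the medians were 0.33 for the members and 0.79 for all genes, and with implied fragment totals 0.76 and 1.15. The median of the members thus stayed below that of all genes. Under these 2 scalings 24 and 30 members were positive, where 11 already were on the rescaled FPKM scale.

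No member passed at a Benjamini-Hochberg adjusted p under 0.05 in limma (0 of 38), where 0.413% of all genes did, and the lowest adjusted p was 0.101. At an unadjusted p under 0.05 there were 15 lower and 2 higher members, against 12.2% lower and 17.9% higher among all genes. The groups did not overlap in 9 members, all lower, where 7.62% of all genes were lower without overlap and 10.9% higher. Members were called by 2 other fits of limma. Sample quality weights called 17 lower and 3 higher (12.5% and 19.5% of all genes), and leaving out labelled library 4 called 10 lower and 2 higher (10.1% and 11.5%). The weights ranged from 0.343 for labelled library 4 to 1.91 for control 3. Labelled libraries 1 to 3 had 0.591, 0.538 and 1.75, so the labelled group of that fit rested most on library 3.

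Labelled libraries 1 and 3 carried most of the difference. Labelled library 1 was the lowest of the 8 in 23 of 38 members, and libraries 1 and 3 together were the lowest pair in 21. Labelled library 4 was above the control mean in 20 members. The median over the 38 members, as the difference from the control mean in log2(rescaled FPKM + 1), stood at -1.28, -0.25, -0.76 and 0.07 for labelled libraries 1 to 4, and the controls lay between -0.13 and 0.16. Without labelled library 1 it was -0.23 as a median log2 fold change, and without labelled library 3 it was -0.40. Within the BKD titles the median log2 fold change of the members was -0.84, within the ASK and BSH titles -0.16, each with 1 library in a group, and without labelled libraries 1 and 3 it was -0.08.

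The acinar, macrophage, fibroblast and duct lists had medians farthest from the controls in labelled libraries 1 and 3, unlike the other lists. On that scale adipocyte medians were 2.19, 1.76, 1.49 and 1.61 in labelled libraries 1 to 4. Plasma and B cell medians were 0.16, 0.61, 1.97 and 0.63, and islet medians 2.61, 0.72, 0.033 and -0.26. Enzymes and granule products had medians of -5.63, -1.001, -2.42 and -0.34 in labelled libraries 1 to 4 on the same scale, with 29 of 33 tested members negative. The 5 acinar regulators had medians of -2.49, -0.14, -0.84 and -0.15. All 8 macrophage genes were positive, with summed levels of 214 to 829 in the labelled libraries and 103 to 162 in the controls. All 7 fibroblast genes were positive, with sums of 331 to 1248 in the labelled libraries and 205 to 282 in the controls. All 8 adipocyte genes were positive too and 2 of them rose at an adjusted p under 0.05 in limma, with sums of 380 to 498 in the labelled libraries against 75.0 to 223 in the controls. Plasma and B cell genes, 4 of 4 positive, summed to 54.3 to 418 in the labelled libraries and 42.1 to 182 in the controls, with the highest sum in labelled library 3. Islet genes, 7 of 7 positive, summed to 762 to 5958 in the labelled libraries and 558 to 1475 in the controls, and duct genes, 3 of 5 positive, to 31.4 to 229 in the labelled libraries and 61.9 to 76.4 in the controls. None of the acinar, macrophage, fibroblast or adipocyte genes was at 0 in any library except 8 enzyme genes that lack an estimate. Their part in the results below was not tested, and in whole tissue fewer acinar cells and less RNA per acinar cell cannot be told apart.

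**Figure D1:**
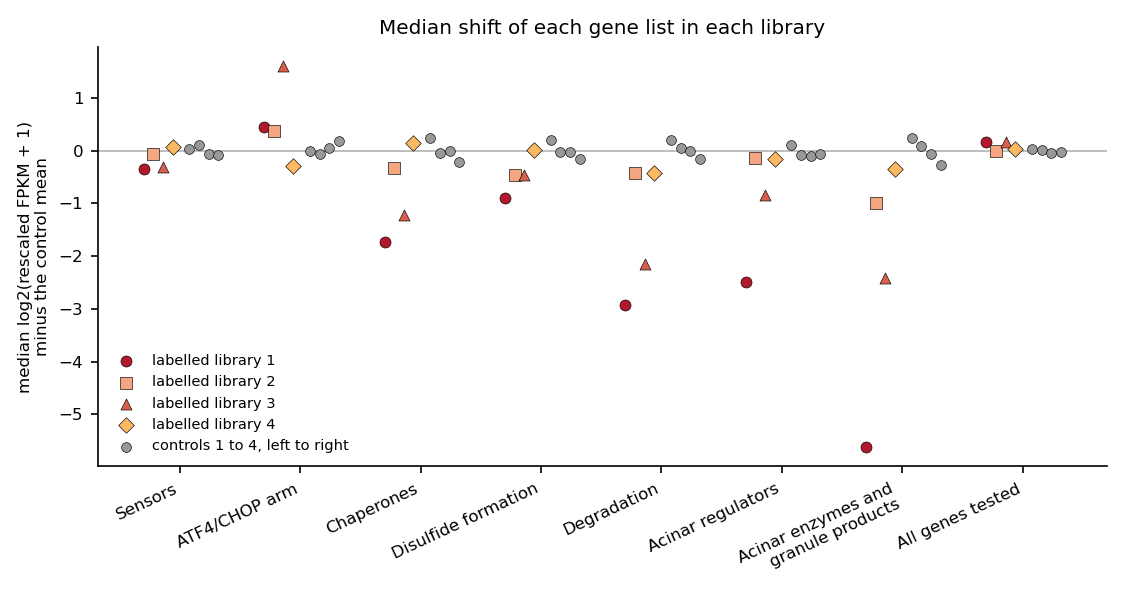
The vertical axis gives the median over a gene list of log2(rescaled FPKM + 1) minus the mean of the 4 controls, for each of the 5 roles, the acinar regulators, the acinar enzymes and all genes tested. Coloured symbols are labelled libraries 1 to 4 and grey circles controls 1 to 4. Degradation genes and chaperones were lowest in labelled library 1 (-2.92 and -1.72) and next in library 3 (-2.15 and -1.21), as the enzymes were (-5.63 and -2.42).

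The sensor role, which here holds Xbp1 and Creb3l2 beside the sensor genes Ern1, Atf6 and Eif2ak3, showed small differences apart from Xbp1. Xbp1 (chromosome 11, 5420662 to 5425896 on mm9), the transcription factor acted on by IRE1, had 43.1, 137, 106 and 297 rescaled FPKM in labelled libraries 1 to 4, against 203, 190.3, 191 and 179 in controls 1 to 4. Labelled libraries 1 to 3 lay below every control and library 4 above every control, so the groups overlapped (log2 fold change -0.70, SE 0.52, adjusted p = 0.363 in limma). These gene-level values do not separate spliced from unspliced Xbp1 messenger RNA.

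Atf6, the sensor cut in the Golgi, had 3.60, 6.22, 4.42 and 6.92 rescaled FPKM in labelled libraries 1 to 4 and 6.43, 7.11, 6.72 and 5.91 in controls 1 to 4. Again libraries 1 and 3 were the low ones and library 4 was within the controls (log2 -0.29, SE 0.19, adjusted p = 0.294 in limma). Creb3l2, an ATF6 relative that is also cut to release a transcription factor, had 2.88, 3.05, 2.21 and 2.47 in the labelled libraries against 3.38, 3.11, 2.83 and 2.68 in the controls, and its groups overlapped (log2 -0.13). Ern1, which encodes IRE1, averaged 4.56 ± 0.55 in the labelled libraries and 4.70 ± 0.51 in the controls (SD, n = 4 each). Eif2ak3, which encodes PERK, averaged 17.1 ± 5.22 in the labelled libraries and 15.3 ± 4.80 in the controls (SD, n = 4 each). The sensor kinases thus differed by less than the spread between mice, while Xbp1 varied from 43.1 to 297 among the labelled libraries alone. None of the 5 reached an unadjusted p under 0.05.

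In the ATF4/CHOP arm, Atf4 was the gene that separated the groups. Atf4 (chromosome 15, 80085614 to 80087970 on mm9), the transcription factor whose translation rises when PERK slows other translation, had 26.6, 45.4, 44.6 and 45.2 rescaled FPKM in labelled libraries 1 to 4. Controls 1 to 4 had 62.0, 59.3, 64.1 and 62.1, so every labelled library lay below every control (log2 -0.63, SE 0.22, adjusted p = 0.123 in limma). Libraries 2, 3 and 4 were close together and library 1 lower still. ATF4 is controlled largely at translation, which messenger RNA levels do not show.

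Genes known as ATF4 targets went different ways. Chac1, a glutathione-degrading enzyme, had 1.51, 9.64, 4.96 and 2.41 rescaled FPKM in labelled libraries 1 to 4, against 9.10, 9.65, 13.9 and 12.8 in controls 1 to 4. Libraries 1, 3 and 4 lay below every control and library 2 within them (log2 -1.34, SE 0.42, adjusted p = 0.113 in limma). Unlike most members, Chac1 was low in library 4 as well. Atf3, a stress-inducible transcription factor, had 4.00, 1.36, 6.49 and 0.798 in the labelled libraries, against 0.247, 0.527, 0.440 and 0.923 in the controls. Labelled libraries 1 to 3 exceeded every control and library 4 did not exceed control 4 (log2 1.23, SE 0.43, adjusted p = 0.126 in limma). Between 0.576 and 337 implied fragments stood behind each Atf3 value, so the control levels rest on very few reads.

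Ddit3, which encodes the pro-apoptotic factor CHOP, had 4.97, 4.69, 12.4 and 3.17 rescaled FPKM in labelled libraries 1 to 4, against 3.79, 4.54, 1.83 and 3.99 in controls 1 to 4. Only labelled library 3 stood well above the controls (log2 0.58, SE 0.37, adjusted p = 0.288 in limma). The Ddit3 locus overlaps that of Mars, which averaged 24.5 rescaled FPKM over the 8 libraries, and reads of the pair may be confused since strand use is not given in the sources used here. Trib3, a pseudokinase that dampens this arm, was also highest in that library, with 3.50, 2.74, 11.2 and 1.33 in the labelled libraries against 1.86, 0.919, 3.46 and 1.64 in the controls (log2 0.72, adjusted p = 0.318 in limma). Labelled library 3 had the highest Ddit3, Trib3 and Atf3 of all 8.

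**Figure D2:**
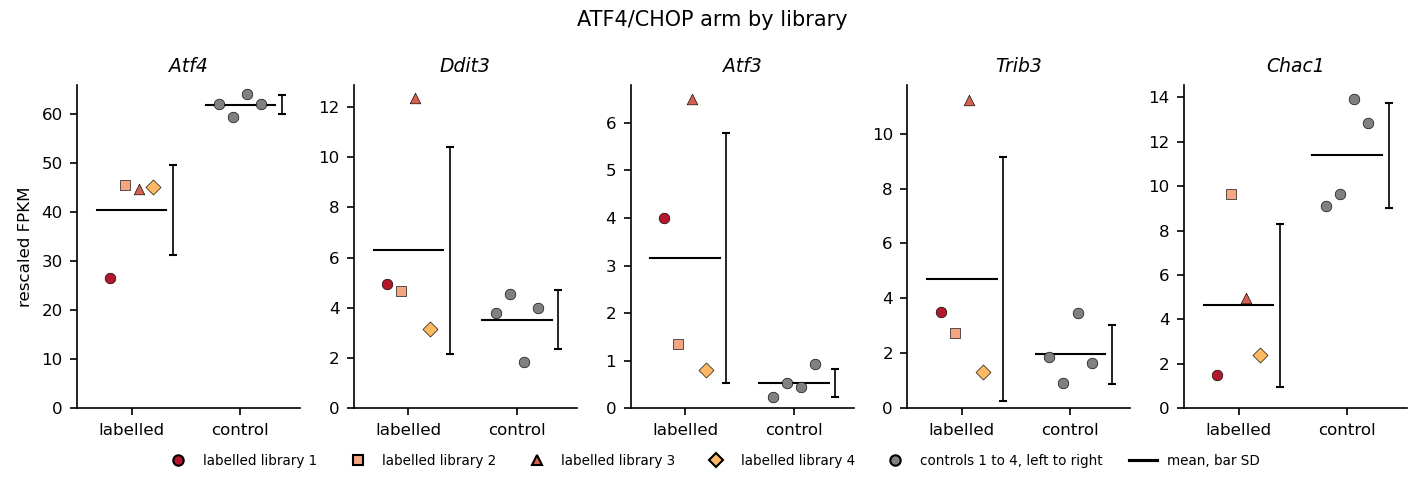
Rescaled FPKM of the 5 genes of the ATF4/CHOP arm, on linear axes from 0, with labelled libraries 1 to 4 as coloured symbols and the controls as grey circles. Horizontal lines are group means and the bars at their side the SD (n = 4 each). Atf4 did not overlap between the groups, and labelled library 3 was highest in Ddit3 (12.4), Atf3 (6.49) and Trib3 (11.2).

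Chaperone genes carry a known promoter element, and it is shown here because members that hold it had log2 fold changes of both signs. The ER stress element (ERSE) is CCAAT and CCACG with 9 free bases between them, recognised by NF-Y together with ATF6 or XBP1. ERSE-II is ATTGG and CCACG with 1 free base between them. Windows of 250 bases before to 50 after the annotated start were found in the RefSeq table (GRCm38.p6) for 33 of the 38 members (not for Atf6, Hyou1, Manf, Erp27 and Erp29), and both strands were searched. ERSE occurred in 9 of these 33 members, with 10 sites, against 0.119% of 32851 windows of all genes. ERSE-II occurred in 2 members (0.0365% of all windows). The sites are printed 5′ to 3′ along the element, with the element in capitals and 8 bases on each side:
Hsp90b1, distal site: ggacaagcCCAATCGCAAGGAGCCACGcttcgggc
Hsp90b1, proximal site: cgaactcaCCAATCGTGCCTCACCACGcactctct
Calr: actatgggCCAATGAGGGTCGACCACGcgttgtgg
Canx: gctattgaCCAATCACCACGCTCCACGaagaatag
Hspa5: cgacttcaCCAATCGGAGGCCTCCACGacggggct
Syvn1: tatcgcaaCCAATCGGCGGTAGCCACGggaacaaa
Pdia6: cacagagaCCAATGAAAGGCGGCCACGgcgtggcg
Creld2: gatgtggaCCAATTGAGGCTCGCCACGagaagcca
Dnajc3: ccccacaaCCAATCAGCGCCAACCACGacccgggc
Ero1lb: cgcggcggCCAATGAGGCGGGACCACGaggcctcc
Dnajb11 (ERSE-II): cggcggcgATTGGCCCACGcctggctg
Herpud1 (ERSE-II): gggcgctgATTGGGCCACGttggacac

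In these lines the members run from the highest log2 fold change, 0.35 for Hsp90b1, to the lowest among those with ERSE, -1.95 for Ero1lb, with the ERSE-II pair last (-1.33 for Dnajb11 and -1.44 for Herpud1). The 9 members with ERSE had a median log2 fold change of -0.51 and the 24 members with a window but no ERSE a median of -0.52. The 24 include Dnajb11 and Herpud1, which hold ERSE-II, and only exact matches were counted. The medians thus do not compare promoters with and without any stress element. Of the 9, 7 were negative and 2 positive, and of the 7 negative ones Hspa5, Canx, Pdia6 and Syvn1 turned positive with equal sums outside the enzymes. The other 2 motifs searched on both strands, the unfolded protein response element TGACGTGG (0.676% of all windows) and the ATF4 composite element TGATGNAAT (0.965%), had no match in the members' windows, and no 2 kinds of motif overlapped there. The ATF4 pattern was searched with its last base fixed as T. The windows of Chac1, Atf3 and Herpud1 hold the same letters with another last base, so only this spelling was without a match. A match to letters is not evidence of binding.

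**Figure D3:**
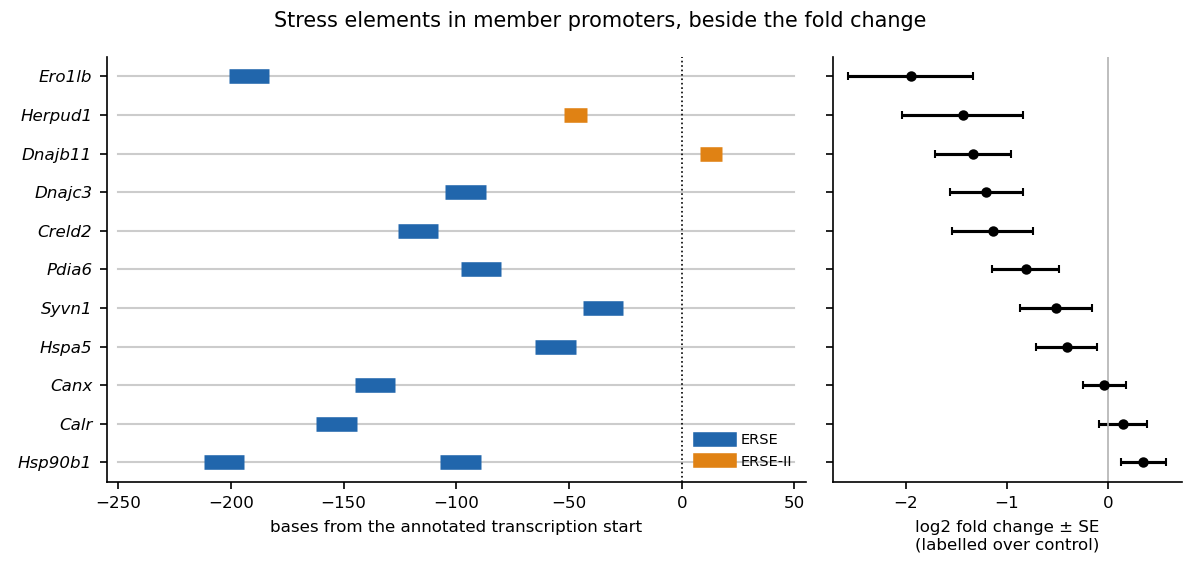
Left, position of each ERSE (blue) and ERSE-II (orange) match relative to the annotated transcription start (dotted line), in bases, for the 11 members that hold one. Right, log2 fold change of the same genes with its SE (n = 4 each, positive where higher in the labelled libraries), which ran from -1.95 for Ero1lb to 0.35 for Hsp90b1.

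The promoter of the central chaperone gene Hspa5 is given because all other members are later set against this gene (RefSeq, GRCm38.p6 chr2:34771840-34772139, plus strand, ERSE in capitals):
Hspa5 promoter: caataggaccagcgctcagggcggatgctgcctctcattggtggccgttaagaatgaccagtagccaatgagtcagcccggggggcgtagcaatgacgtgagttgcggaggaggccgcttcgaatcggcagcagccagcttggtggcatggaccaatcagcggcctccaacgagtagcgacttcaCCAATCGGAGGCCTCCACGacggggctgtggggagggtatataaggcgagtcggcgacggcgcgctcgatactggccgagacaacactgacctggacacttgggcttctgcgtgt

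Hspa5 (chromosome 2, 34627490 to 34632051 on mm9) encodes BiP, the ER Hsp70 that binds nascent chains and holds the sensors inactive. It had 55.2, 94.4, 95.5 and 139.5 rescaled FPKM in labelled libraries 1 to 4, against 146, 117.5, 118 and 107 in controls 1 to 4. Libraries 1 to 3 lay below every control and library 4 within them (log2 -0.41, SE 0.30, adjusted p = 0.363 in limma). The sign turned with equal sums outside the enzymes (0.51) and with implied fragment totals (0.98).

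Of the J-domain co-chaperones of BiP in this role, Dnajb11 and Dnajc3 did not overlap between the groups and Dnajb9 did. Dnajb11 (ERdj3; chromosome 16, 22857918 to 22879707 on mm9), which delivers clients to BiP, had 16.3, 47.1, 24.7 and 56.8 rescaled FPKM in labelled libraries 1 to 4, against 79.8, 72.1, 93.5 and 88.4 in controls 1 to 4. Every labelled library was below every control (log2 -1.33, SE 0.38, adjusted p = 0.106 in limma). Dnajc3 (p58IPK), a BiP co-chaperone also known to inhibit PERK, had 8.44, 22.1, 11.3 and 29.9 in the labelled libraries, against 39.5, 39.1, 39.9 and 34.0 in the controls. Its groups did not overlap either (log2 -1.20, SE 0.36, adjusted p = 0.111 in limma). Dnajb9 (ERdj4), which represses IRE1, averaged 11.6 ± 3.31 in the labelled libraries and 15.8 ± 5.34 in the controls (SD, n = 4 each; log2 -0.40).

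Other secretory folding helpers were again at their lowest in labelled libraries 1 and 3. Creld2, an ER protein induced by ER stress, had 3.83, 16.2, 6.37 and 15.1 rescaled FPKM in labelled libraries 1 to 4, against 21.3, 22.7, 22.3 and 18.0 in controls 1 to 4, without overlap (log2 -1.14, SE 0.40, adjusted p = 0.124 in limma). Ppib, the ER cyclophilin B that isomerises prolines, had 26.9, 96.0, 43.0 and 131 in the labelled libraries against 161, 139, 142 and 120.3 in the controls (log2 -1.16, SE 0.47, adjusted p = 0.150 in limma). Here library 4 lay within the controls and the other labelled libraries below them. Its locus overlaps that of Snx22, so its reads may be shared. Sdf2l1, a BiP partner, and the secreted ER protein Manf were lower in libraries 1 to 3 than in every control, with log2 fold changes of -1.04 and -0.89. Hyou1, the nucleotide exchange factor of BiP, averaged 16.2 ± 9.41 in the labelled libraries and 21.2 ± 2.40 in the controls (SD, n = 4 each). In library 4 Manf lay within the controls. Sdf2l1 (41.2) and Hyou1 (27.3) were there above every control, whose highest values were 41.0 and 23.9.

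The remaining chaperones stood close to the controls or above them. Hsp90b1, the ER Hsp90 known as GRP94, had 94.0, 53.5, 68.2 and 64.1 rescaled FPKM in labelled libraries 1 to 4, against 62.9, 50.9, 47.8 and 53.3 in controls 1 to 4. Its highest value was in library 1, where most members were lowest (log2 0.35, SE 0.22, adjusted p = 0.296 in limma). The lectin chaperones calreticulin (Calr) and calnexin (Canx) averaged 73.1 ± 14.0 and 37.1 ± 5.50 in the labelled libraries and 66.2 ± 16.4 and 38.5 ± 8.78 in the controls (SD, n = 4 each). Hsp90b1, with Pdia3, Erp27 and Trib3, was given in every library after its values had been seen. Of the 12 chaperone genes 10 were negative (42.1% of all genes were) and 3 lower without overlap (7.62% of all genes), with a median log2 fold change of -0.71.

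Among the disulfide-forming genes the widest differences of the whole set were found. Pdia2 (chromosome 17, 26332944 to 26336032 on mm9), the pancreas-enriched protein disulfide isomerase, had 14.8, 997, 206 and 1307 rescaled FPKM in labelled libraries 1 to 4, against 2595, 2461, 2272 and 1776 in controls 1 to 4. All labelled libraries lay below all controls, library 1 by far the most (log2 -3.14, SE 1.26, adjusted p = 0.147 in limma). Erp27, a non-catalytic relative that binds unfolded chains, had 4.67, 175, 53.0 and 348 in the labelled libraries against 372, 416, 440 and 364 in the controls. It too did not overlap (log2 -2.59, SE 1.12, adjusted p = 0.163 in limma). P4hb, the founding protein disulfide isomerase, had 58.0, 351, 133 and 588 in the labelled libraries against 875, 559, 622 and 517 in the controls, with library 4 inside the control range (log2 -1.65, SE 0.68, adjusted p = 0.152 in limma). Leaving out labelled library 1 brought Pdia2 to -1.80, Erp27 to -1.42 and P4hb to -1.06.

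The 3 genes Pdia2, P4hb and Erp27 made up 10.3%, 54.8%, 30.1% and 57.0% of the summed level of all 38 members in labelled libraries 1 to 4, while in the controls they made up 64.3% to 67.7%. The members as a whole summed to 755, 2777, 1300.4 and 3935 rescaled FPKM in the labelled libraries, against 5812, 5077, 4963 and 4135 in the controls. Without those 3 genes the sums were 677, 1254, 909 and 1692 in the labelled libraries and 1478 to 1969 in the controls, so library 4 then lay within the controls. The column sums of the files differed as well. They were 2.34e+10, 8.28e+10, 6.80e+10 and 1.30e+11 deposited FPKM in labelled libraries 1 to 4 and 1.42e+11 to 1.86e+11 in the controls. The member sums are not corrected for them.

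The oxidases that recharge these isomerases differed from each other. Ero1lb (ERO1-beta; chromosome 13, 12658150 to 12701793 on mm9), the form of pancreas and other secretory tissue, had 12.99, 53.8, 7.67 and 59.3 rescaled FPKM in labelled libraries 1 to 4, against 106, 105, 94.4 and 80.9 in controls 1 to 4. The groups did not overlap, and here library 3 rather than 1 was lowest (log2 -1.95, SE 0.62, adjusted p = 0.114 in limma). Ero1l (ERO1-alpha), the widely expressed form, averaged 2.89 ± 0.57 in the labelled libraries and 2.43 ± 0.23 in the controls (SD, n = 4 each; log2 0.17, adjusted p = 0.380 in limma). Per length of transcript, Ero1lb thus stood far above Ero1l in the controls and much closer to it in labelled libraries 1 and 3.

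Erp44, which retains proteins through mixed disulfides, had 9.15, 19.2, 14.8 and 28.8 rescaled FPKM in labelled libraries 1 to 4, against 44.3, 32.8, 24.0 and 32.4 in controls 1 to 4. Library 4 overlapped control 3 (log2 -0.93, SE 0.34, adjusted p = 0.129 in limma). Pdia6, another isomerase, averaged 38.5 ± 17.5 in the labelled libraries and 63.8 ± 10.2 in the controls (SD, n = 4 each; log2 -0.81, adjusted p = 0.150 in limma). Erp29 and Pdia5 differed little, with log2 fold changes of -0.06 and 0.09.

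Dnajc10, Pdia3 and Pdia4 were higher in most labelled libraries. Dnajc10 (ERdj5), a reductase that opens disulfides before degradation, had 12.4, 8.04, 9.46 and 7.07 rescaled FPKM in labelled libraries 1 to 4, against 5.92, 7.15, 5.66 and 6.17 in controls 1 to 4. Library 4 lay just under control 2, so the groups overlapped narrowly (log2 0.48, SE 0.18, adjusted p = 0.130 in limma). Pdia3 (ERp57), the isomerase that works with calnexin and calreticulin on glycoproteins, had 81.9, 55.3, 81.0 and 72.6 in the labelled libraries against 66.7, 47.7, 47.1 and 43.6 in the controls (log2 0.50, SE 0.22, adjusted p = 0.173 in limma). Pdia4 (ERp72) averaged 13.7 ± 2.49 in the labelled libraries and 10.5 ± 2.02 in the controls (SD, n = 4 each; log2 0.35, adjusted p = 0.216 in limma). Of the 12 genes of this role 7 were negative (42.1% of all genes were) and 3 were lower without overlap (7.62% of all genes), with a median of -0.43. At an unadjusted p under 0.05 in limma 6 of the 12 were lower and 1 higher, against 12.2% and 17.9% of all genes.

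**Figure D4:**
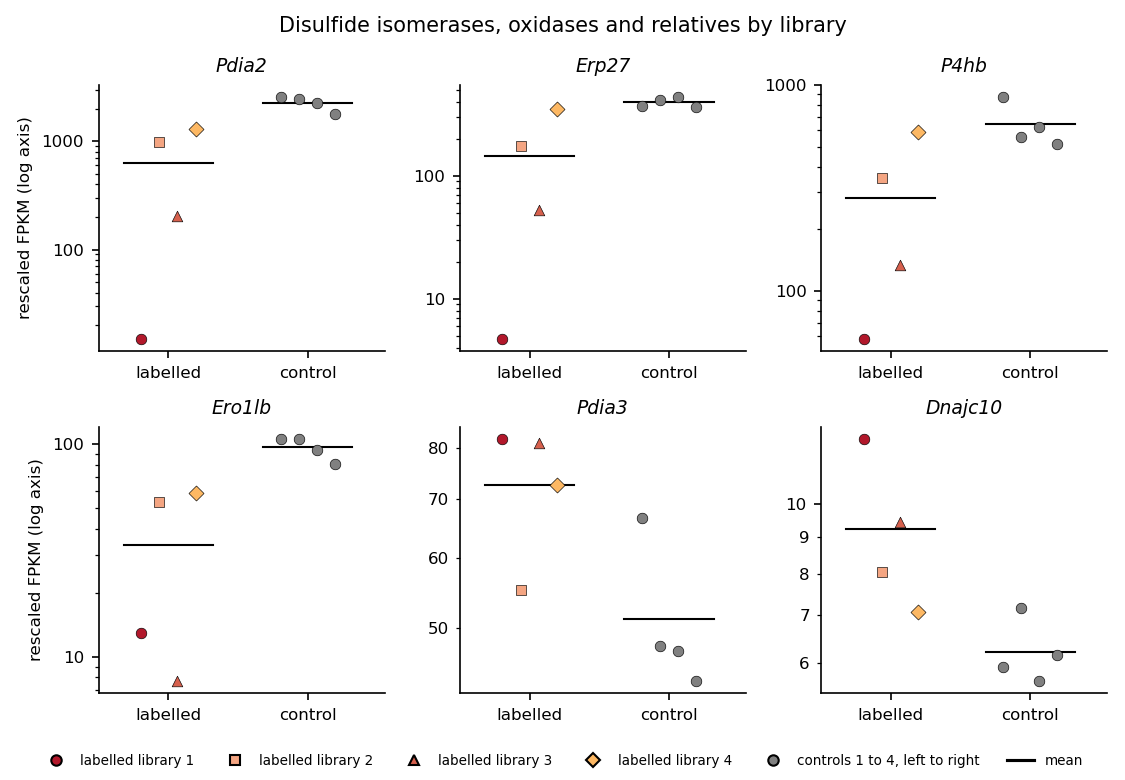
Rescaled FPKM on log axes of 6 genes of disulfide formation, with labelled libraries 1 to 4 as coloured symbols on the left of each panel, controls 1 to 4 as grey circles on the right and lines at the group means. Pdia2 ranged from 14.8 to 1307 in the labelled libraries and from 1776 to 2595 in the controls, while Pdia3 ranged from 55.3 to 81.9 in the labelled libraries and from 43.6 to 66.7 in the controls.

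All 4 genes of ER-associated degradation were negative (42.1% of all genes were) and 2 were lower without overlap (7.62% of all genes), with the lowest median of the 5 roles, -1.51. Edem1 (chromosome 6, 108778635 to 108809350 on mm9), a mannosidase-like factor that hands misfolded glycoproteins to degradation, had 5.25, 24.2, 7.92 and 24.0 rescaled FPKM in labelled libraries 1 to 4, against 44.7, 53.1, 48.5 and 43.0 in controls 1 to 4. The gap between the groups was wide (log2 -1.81, SE 0.46), and its adjusted p of 0.101 in limma was the lowest of the 38. Sel1l, the scaffold of the ubiquitin ligase HRD1, had 13.1, 108, 26.5 and 79.6 in the labelled libraries against 147, 114, 127 and 123 in the controls, without overlap (log2 -1.58, SE 0.61, adjusted p = 0.138 in limma). Herpud1, a stress-induced partner of that ligase, had 20.2, 101, 36.3 and 139.8 in the labelled libraries against 238, 166, 141 and 107 in the controls, and library 4 reached into the control range (log2 -1.44, SE 0.60, adjusted p = 0.155 in limma). Syvn1, which encodes HRD1 itself, averaged 10.3 ± 6.06 in the labelled libraries and 13.5 ± 1.57 in the controls (SD, n = 4 each). Its level in labelled library 4 (18.2) was above every control, of which the highest had 15.5. Sel1l separated the groups narrowly, with 108 in labelled library 2 and 114 in control 2. The ratios of Sel1l, Herpud1 and Syvn1 to Hspa5 overlapped between the groups.

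Ratios within a library do not depend on how libraries are scaled, so each member was also set against Hspa5 in the same library. Hspa5 itself was low in labelled library 1, at 55.2 rescaled FPKM, which raises every ratio there. Among the other 37 members 9 ratios were lower without overlap, where 4.49% of all genes were, and 3 were higher without overlap, where 9.26% of all genes were. The lower ones were those of Ppib, Dnajb11, Dnajc3, Pdia2, Pdia6, P4hb, Erp27, Ero1lb and Edem1, and the higher ones those of Calr, Pdia3 and Pdia4. Pdia2 stood at 0.268, 10.6, 2.15 and 9.37 times Hspa5 in labelled libraries 1 to 4, against 17.8, 20.9, 19.2 and 16.6 times in controls 1 to 4. Pdia3 stood at 1.49, 0.586, 0.848 and 0.520 times Hspa5 in the labelled libraries against 0.398 to 0.457 times in the controls. The proportions in labelled library 1 were the farthest from the controls for both of these genes. Atf4 had a ratio to Hspa5 of 0.324 to 0.482 in the labelled libraries and 0.425 to 0.582 in the controls, which overlapped.

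Other genes of the pathway that are not among the 38 were read from 4 lists. The lists, chosen with results of these data known, held 80 genes. Of these 79 were found and 73 tested, and none passed over all genes in limma (0 of 73), with 22 lower and 9 higher at an unadjusted p under 0.05, against 12.2% lower and 17.9% higher among all genes. Of the 73, 14 were lower and 2 higher without overlap, where 7.62% and 10.9% of all genes were. Their median log2 fold change was -0.14, beside 0.10 for all genes. The 28 tested genes of ER folding and redox had a median of -0.05, and the 2 with the lowest p were the ER cyclophilin Ppic (22.2 ± 4.88 in the labelled libraries and 45.9 ± 8.98 in the controls, log2 -1.02) and the sulfhydryl oxidase Qsox1 (log2 -1.68). The 17 tested degradation genes had a median of -0.30, with the lectin Os9 at -0.88 and the mannosidase-like Edem2 at -1.52. The 11 sensor and eIF2-alpha genes had a median of -0.06, with Eif2ak2, the kinase PKR, at 1.00 and the phosphatase subunit Ppp1r15b at -0.69. The 17 ATF4 targets had a median of -0.64, with the amino acid transporter subunit Slc3a2 at -0.94 and the proline enzyme Aldh18a1 at -1.10. Among the genes named here Os9, Ppp1r15b, Slc3a2, Aldh18a1, Ppic and Qsox1 were lower without overlap and Eif2ak2 higher without overlap.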

How the data were processed

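RNA-seq of 8 mouse pancreases (4 per group) was deposited as Cufflinks FPKM per gene with interval bounds. The FPKM values were made by the authors with CASAVA 1.8, TopHat2 2.0.4, Bowtie and Cufflinks 2.0.1 on mm9, per the submitters' processing notes; strand use is not given in the sources used here. The values were divided by 100000. Groups were taken from the labels. Genes with a mean of at least 1 were tested with limma 3.58.1 (R 4.3.3, mean-variance trend) on log2(rescaled FPKM + 1), so fold changes understate those of low genes, and 11860 genes were tested with Benjamini-Hochberg adjustment at 0.05. The 8 genes with the Cufflinks status HIDATA (too many fragments to estimate) in any library were left out. Counts were not used. Implied fragments were taken from the interval widths and cover counting error only. Promoters are RefSeq windows on GRCm38.p6, while positions of genes come from the deposited mm9 annotation. The members and all gene lists were chosen with earlier results of these data known. Values per library are given for the members with the lowest unadjusted p of each role and for 8 further members named by role, and of other pathway genes the 2 of each list with the lowest p are named. Alternatives covered the pseudocount, expression minimum, scaling, trend, quality weights, title prefix and leaving out libraries. Protein sequences were not analysed here.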

Additional observations from a re-analysis of the deposited data

Results flagged for a closer look

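Of 78 groups of 4 libraries tested for a sample far from the others, 2 held one, and chance gives about 1 in 20. Atf4 in labelled library 1, at 26.6 rescaled FPKM, lay well below the other labelled libraries. Dnajc3 in control 4, at 34.0 rescaled FPKM, lay below the other controls and still above every labelled library.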

How the results depend on the processing

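All values are log2 fold changes, and the cause of each change was not tested. Signs turned mainly with scaling. With equal sums outside the enzymes Xbp1 was 0.22, Ern1 0.73, Atf6 0.50, Creb3l2 0.58, Atf4 0.28, Hspa5 0.51, Canx 0.87, Dnajb9 0.46, Hyou1 0.33, Manf 0.022, Pdia6 0.094, Erp29 0.84 and Syvn1 0.33, and the medians were 0.58 for sensors, 1.35 for the ATF4/CHOP arm, 0.18 for chaperones, 0.38 for disulfide genes and -0.60 for degradation genes. With implied fragment totals Xbp1 was 0.69, Ern1 1.12, Atf6 0.90, Creb3l2 0.93, Atf4 0.74, Hspa5 0.98, Canx 1.33, Ppib 0.22, Dnajb9 0.90, Dnajb11 0.034, Dnajc3 0.13, Sdf2l1 0.28, Hyou1 0.77, Creld2 0.14, Manf 0.49, Pdia6 0.56, Erp29 1.30, Erp44 0.40 and Syvn1 0.76, and the medians in the same order were 0.93, 1.73, 0.63, 0.77 and -0.14. With quantile normalization Canx was 0.21, Pdia5 -0.14, Erp29 0.12 and Ero1l -0.014, and the medians were -0.28 for sensors, 0.47 for the ATF4/CHOP arm and -1.24 for degradation. The ATF4/CHOP median was 0.70 with a pseudocount of 0.1 and 0.35 with 5. At an expression minimum of 5 the medians were -0.29 for sensors, -0.99 for the ATF4/CHOP arm and -0.87 for disulfide genes. These medians moved because low genes were left out, and no tested member changed sign. Ddit3, Atf3 and Trib3 fell below that minimum, so the ATF4/CHOP median rested on Atf4 and Chac1 alone.

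With quality weights Ern1 was 0.012 and Erp29 0.021, the medians were 1.04 for the ATF4/CHOP arm, -0.94 for chaperones and -1.79 for degradation, members called were 3 higher and 17 lower, and other pathway genes called were 12 higher and 26 lower of 73, where this fit called 19.5% of all genes higher and 12.5% lower. With title prefix as a covariate Calr was -0.054 and the medians were 0.47 for the ATF4/CHOP arm and -1.29 for degradation. In the BKD titles Calr was -0.27, with medians of -0.32 for sensors, -1.20 for chaperones, -0.68 for disulfide genes and -2.13 for degradation. In the ASK and BSH titles Eif2ak3 was -0.022, Creb3l2 0.067, Hyou1 0.023 and Pdia5 -0.14, with medians of 0.41 for the ATF4/CHOP arm, -0.20 for chaperones and -0.30 for degradation. Without labelled libraries 1 and 3, an alternative chosen after seeing the data, Xbp1 was 0.084, Atf6 0.0062, Hyou1 0.16 and Syvn1 0.12, with medians of 0.0062 for sensors, 0.059 for the ATF4/CHOP arm, -0.10 for chaperones, -0.19 for disulfide genes and -0.42 for degradation. Gata6 no longer passed with a pseudocount of 0.1 (0.90) or 5 (0.38), no expression minimum (0.72), median-ratio scaling (0.63), quantile normalization (0.57), equal sums (1.43), implied totals (1.803), no trend (0.72), the covariate (0.71), BKD titles (0.57), ASK and BSH titles (0.85) or without labelled libraries 1 and 3 (0.69), but stayed higher.

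Leaving out 1 library at a time gave 0 to 2 members called higher and 0 to 10 lower, and 0 to 4 other pathway genes higher and 0 to 20 lower. Each maximum came without labelled library 4, where 11.5% of all genes were called higher and 10.1% lower, and each of the other 7 fits called 0 members and 0 other pathway genes. Medians then ranged from -0.18 to -0.081 for sensors, 0.24 to 0.80 for the ATF4/CHOP arm, -1.03 to -0.42 for chaperones, -0.60 to -0.28 for disulfide genes and -1.87 to -0.999 for degradation. Gata6 ranged from 0.67 to 0.77 with adjusted p from 0.0321 (without labelled library 4, the single such fit in which it passed) to 0.183 (without control 2), Ern1 from -0.081 to 0.027, Eif2ak3 from -0.061 to 0.33, Canx from -0.16 to 0.093 and Erp29 from -0.14 to 0.049. No paired analysis was possible because the labels carry no replicate numbers, and the numbers 1 to 4 used here follow the order of deposit and tie no labelled library to a control. Few implied fragments limit Atf3, and 5 members overlap a gene with over 10% of their level (Ddit3, Ppib, Pdia4, Erp29 and Syvn1).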
